A study of Mus musculus with 9 samples.

Results

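The 32 genes described here are a list of interferon response genes, and all 32 were found in the RefSeq table of the mouse build GRCm38.p6. They were chosen by name, with earlier results of these data known, and each was examined over its annotated span plus 2 kb either side. The table annotates 30 of them as protein-coding and Mx1 and Mx2 as transcribed pseudogenes, and it holds 21883 protein-coding genes on the chromosomes examined. By role the list holds 4 transcription factors, 3 RNA sensors, 12 antiviral effectors, 3 genes of the ISG15 system and of ADP-ribosylation, 5 interferon-inducible GTPases, an antigen transporter with a chemokine, and 3 other induced proteins.

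Interferons are secreted proteins that put cells into an antiviral state. Type I interferons bind a receptor whose kinases phosphorylate STAT2, which joins IRF9 in a complex (ISGF3) that binds interferon-stimulated response elements (ISRE) in promoters, while interferon gamma acts at gamma-activated sites (GAS). The genes they switch on encode sensors of foreign RNA, proteins that block viral replication, GTPases against intracellular microbes, and factors of antigen presentation. Endothelium lines the vessels of the lung and is among the cell types that respond to interferons, for example by secreting chemokines that attract leukocytes.

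The cells were endothelial cells isolated from lungs of wild-type (WT) mice. Chromatin was profiled by ACT-seq, in which an antibody against a histone mark guides a Protein A/G-Tn5 transposase that cuts and tags the DNA nearby, once each for H3K4me3 (trimethylation found at active promoters), for the acetylations H2AK5ac, H4K8ac, H3K9ac, H3K14ac, H3K18ac, H3K23ac and H3K27ac, and for IgG, a control antibody without a histone target. The labels name no treatment and no age. Each of the 9 groups was 1 library. The spread between replicates is therefore unknown, marks could not be tested against each other, and every comparison below describes these libraries.

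The deposited table holds the regions of 8 peak lists of 48943 to 578465 peaks, numbered under shared identifiers and separated again for this purpose. Each list bears the name of the mark in whose library its fitted read density was highest, from 13.4 CPM (reads scaled to the library's total) per kb for H3K14ac to 309 for H2AK5ac. The IgG library came second for H3K14ac, with 6.00, and for H3K27ac, with 22.3 against 44.2. It was also second for H3K18ac (13.2 against 68.0), H3K4me3 (28.4 against 180) and H3K9ac (17.0 against 285), and lower in rank for the other lists. How the lists were made is not known beyond the names of the tools. Library totals ran from 365999 reads for IgG to 10044130 for H3K14ac. Of 12 endothelial markers, Pecam1, Cdh5, Kdr, Tek, Tie1, Erg, Egfl7, Emcn, Esam, Eng and Robo4 had peaks of all 8 lists, and Cldn5 had none. All 8 lists were found at 2 of 12 leukocyte markers (Csf1r and Spi1), 2 of 10 lung epithelial markers (Cdh1 and Sftpc) and 1 of 9 mesenchymal markers (Pdgfrb). The share over all protein-coding genes was 44.6%. Median coverage by H3K27ac peaks was 3038 bp over endothelial markers against 271.5 bp, 331.5 bp and 715 bp over the other marker groups. Marker spans differ too, and coverage was not scaled for them. The longest were 227432 bp (Erg) for endothelial, 112898 bp (Ptprc) for leukocyte, 66898 bp (Cdh1) for epithelial and 97662 bp (Myh11) for mesenchymal markers. Coverage summed over the lists ran from 0 to 45898 bp for endothelial markers, 295 to 10120 bp for leukocyte, 0 (Ager) to 10576 bp for epithelial and 654 to 9182 bp for mesenchymal markers, and from 656 to 14108 bp for the interferon response genes. A gene's peaks can come from many cells of a type or from a few cells of another, and these cannot be told apart in a bulk library; the part of other cell types in the results below was not tested.

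For most lists, a larger share of the interferon response genes than of all protein-coding genes had a peak within the span plus 2 kb. Such a peak need not lie on the gene's promoter. An H3K4me3 peak lay at 29 of the 32 genes, against 69.6% of all protein-coding genes. H3K27ac was found at 30 (background 71.6%), H3K18ac at 32 (77.3%) and H4K8ac at 31 (75.4%). H3K9ac was found at 24 (59.2%) and H3K14ac at 31 (89.8%). The remaining acetylations did not follow this pattern. H3K23ac was found at 23 genes, a share of 71.9% that lay near the background of 69.7%, and H2AK5ac at 14, a share of 43.8% under the background of 55.2%. Peaks of all 8 lists were present at 12 genes, or 37.5%, against 44.6% of protein-coding genes, and with peaks of the narrowest width of each list left out at 3 genes, or 9.38%, against 18.6%. None of the 32 lacked every list, as 7.14% of protein-coding genes did.

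The spans of these genes run from 1395 to 50638 bp, with a median of 13454 bp against 17170 bp over all protein-coding genes. Among the 14942 protein-coding genes with spans in that range the backgrounds were 70.6% for H3K4me3, 59.6% for H3K9ac, 73.0% for H3K27ac, 79.0% for H3K18ac, 77.2% for H4K8ac, 69.4% for H3K23ac, 52.9% for H2AK5ac, 92.2% for H3K14ac and 41.8% for all 8 lists. Each share lay on the same side of its background as before. Many peaks had exactly the narrowest width of their list, which is also its commonest. With these left out, H3K4me3 was found at 27 genes (background 59.4%), H3K27ac at 29 (68.6%), H3K18ac at 29 (67.4%), H4K8ac at 29 (64.1%) and H3K14ac at 27 (68.0%). H3K9ac then stood at 15, a share of 46.9% near its background of 44.7%, H3K23ac at 13 (45.6%) and H2AK5ac at 5 (24.4%), the latter with shares of 40.6% and 15.6% below their backgrounds.

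**Figure D1:**
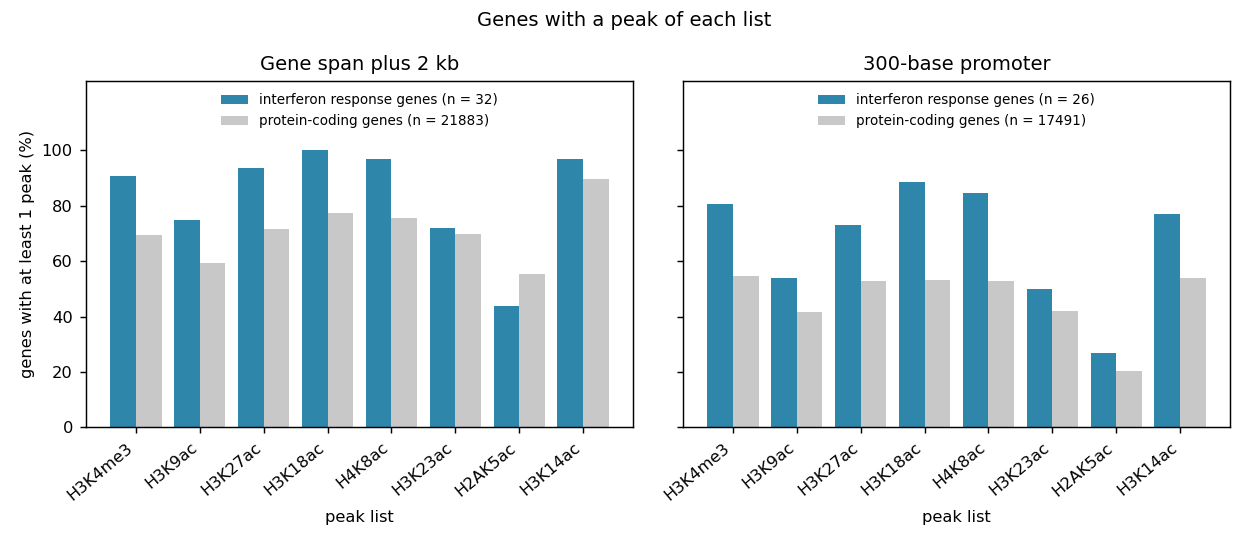
Share of genes (%) with at least 1 peak of each of the 8 lists, for the interferon response genes (blue) and all protein-coding genes (grey). The left panel counts peaks over the gene span plus 2 kb (32 against 21883 genes) and the right panel counts peaks on the 300-base promoter (26 against 17491 genes); the blue bar is below the grey bar only for H2AK5ac over the gene span.

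The number of lists per gene ran from 2 to 8 with a median of 7, which was also the median over all protein-coding genes. Irf1, Irf9, Stat2, Ddx58, Ifih1, Ifit2, Mx2, Isg15, Parp14, Gbp3, Ifi47 and Ifi35 had all 8. Irf7, Dhx58, Oasl2, Bst2, Usp18, Gbp2, Gbp7 and Irgm1 had 7. Oasl2 lacked H3K14ac and Gbp7 lacked H3K9ac, and the other 6 genes with 7 lists lacked H2AK5ac. Ifit1, Oas1a, Rsad2, Cmpk2, Tap1 and Xaf1 had 6, Ifit3, Oas3, Cxcl10 and Ifi44 had 5, Mx1 had 4 and Oas2 had 2. The amount of covered sequence was close to the background for H3K27ac, H3K18ac, H4K8ac and H3K23ac. Median coverage was 546 bp against 570 bp over all protein-coding genes for H3K27ac, 595.5 against 617 bp for H3K18ac, 698 against 652 bp for H4K8ac and 412 against 439 bp for H3K23ac. It was 953 against 780 bp for H3K4me3, 408 against 206 bp for H3K9ac and 1108 against 890 bp for H3K14ac, while for H2AK5ac it was 0 against 129 bp. The ratio to the background depended on the scale. As covered bases per kb of window, the median over these genes divided by that over all protein-coding genes was 3.19 for H3K4me3, 1.81 for H3K27ac, 1.93 for H3K18ac and 1.82 for H4K8ac. Against genes with spans in the same range, this ratio was 1.80 for H3K4me3, 1.32 for H3K27ac, 1.46 for H3K18ac and 1.31 for H4K8ac. It was then 1.53 for H3K9ac, 1.40 for H3K14ac, 0.72 for H3K23ac and 0 for H2AK5ac.

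**Figure D2:**
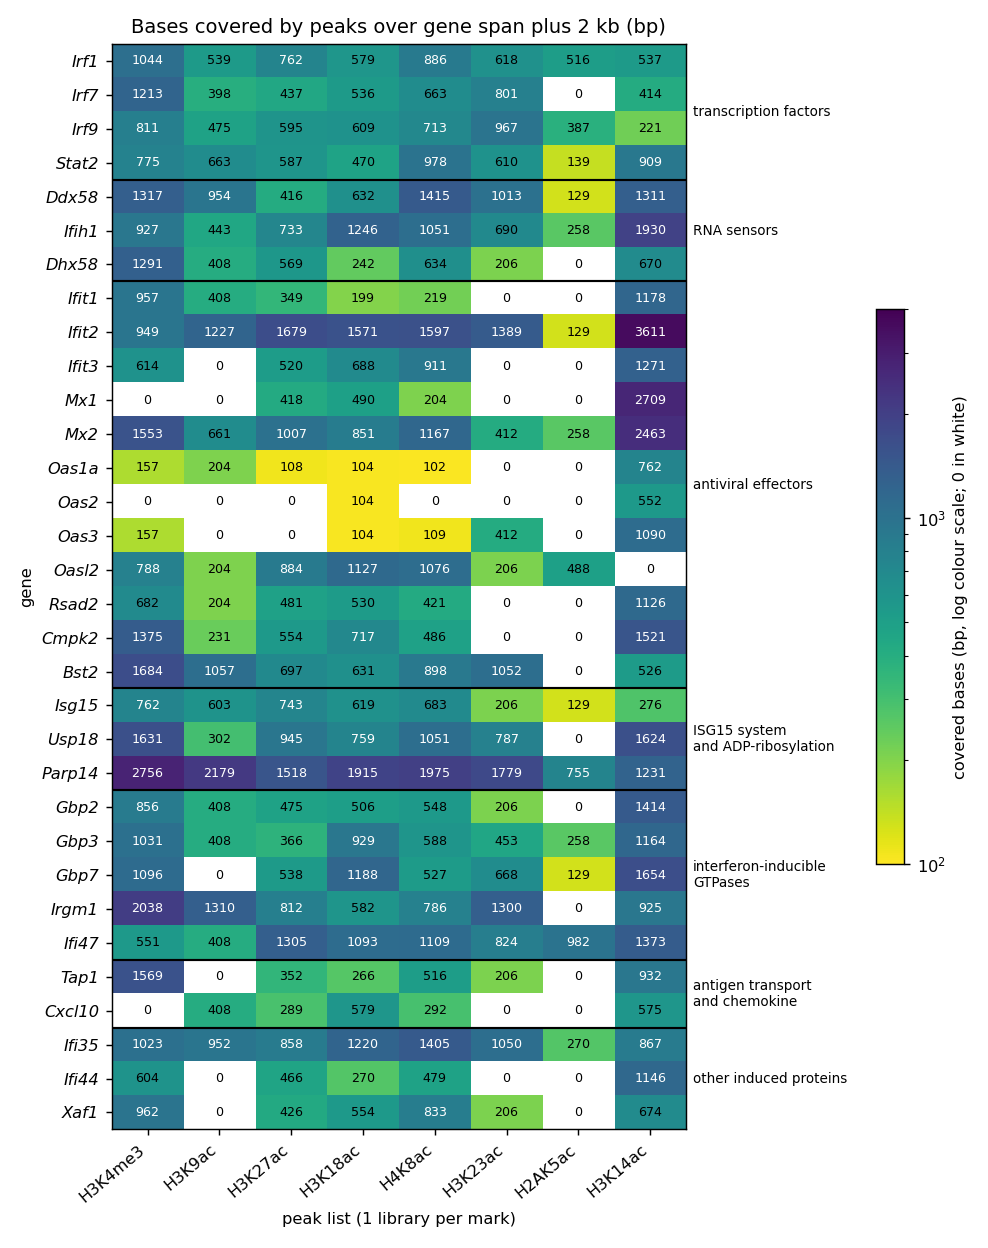
Bases (bp, log colour scale, value printed in each cell) covered by the peaks of each list (columns) over the span plus 2 kb of each of the 32 genes (rows, grouped by role). White cells are 0; they are most frequent in the H2AK5ac and H3K23ac columns and among the antiviral effectors, and coverage reaches 3611 bp for H3K14ac at Ifit2.

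The promoters were read next, as the 250 bases before to 50 bases after each annotated start site in RefSeq's GRCm38.p6 sequences. Such sequences were matched for 26 of the 32 genes, of which Irf1, Irf9, Ifit2 and Gbp3 had 2 start sites each. Oas2, Usp18, Dhx58, Parp14, Mx1 and Mx2 were not matched. The promoters were searched on both strands for the ISRE core, which is GAAA, any 2 bases and GAAA again, for a longer ISRE, which is AGTTTC, any 2 bases and TTTC and so always holds a core read on the opposite strand, and for the GAS, TTCNNNGAA. The ISRE core was found in 15 of the 26 genes, against 3.94% of 17491 protein-coding genes with a promoter sequence and 3.44% of 32851 promoters of this length. The longer form was found in 10 of the 26, against 0.366% of these protein-coding genes, and the GAS in 6 (Irf1, Ifit2, Oas1a, Bst2, Gbp7 and Ifi35), against 8.92%. At Bst2 the GAS shares letters with an ISRE core. A match is a run of letters and was not tested for binding.

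The 40 bases around the first ISRE core of each of the 15 promoters are shown because the peaks can be placed on them. They are written 5′ to 3′ on the gene's strand, with ISRE cores that lie wholly in the stretch in capitals. Overlapping cores run together in Oas1a, Bst2, Isg15, Gbp3 and Irgm1.
Stat2: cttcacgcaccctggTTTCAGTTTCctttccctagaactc
Ddx58: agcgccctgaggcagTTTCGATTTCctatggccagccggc
Ifih1: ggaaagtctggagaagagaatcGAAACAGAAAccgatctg
Ifit1: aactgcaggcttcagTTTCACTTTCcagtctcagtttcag
Ifit3: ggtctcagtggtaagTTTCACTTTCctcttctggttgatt
Oas1a: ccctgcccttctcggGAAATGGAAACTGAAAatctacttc
Oas3: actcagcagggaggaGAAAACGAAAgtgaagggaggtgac
Rsad2: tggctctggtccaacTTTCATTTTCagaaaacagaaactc
Bst2: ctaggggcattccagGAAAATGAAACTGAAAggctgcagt
Isg15: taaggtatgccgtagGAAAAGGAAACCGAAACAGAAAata
Gbp2: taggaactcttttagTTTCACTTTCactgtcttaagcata
Gbp3: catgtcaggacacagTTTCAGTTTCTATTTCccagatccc
Gbp7: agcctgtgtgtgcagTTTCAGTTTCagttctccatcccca
Irgm1: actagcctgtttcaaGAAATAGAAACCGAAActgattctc
Cxcl10: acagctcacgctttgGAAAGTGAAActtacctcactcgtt

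These stretches lay at chr10:128270261-128270300 (+) for Stat2, chr4:40239799-40239838 (−) for Ddx58, chr2:62646206-62646245 (−) for Ifih1, chr19:34640770-34640809 (+) for Ifit1 and chr19:34583358-34583397 (+) for Ifit3. The oligoadenylate synthetase stretches lay at chr5:120907521-120907560 (−) for Oas1a and chr5:120777710-120777749 (−) for Oas3. Those of Rsad2, Bst2 and Isg15 lay at chr12:26456548-26456587 (−), chr8:71537578-71537617 (−) and chr4:156200872-156200911 (−). Those of Gbp2, Gbp3 and Gbp7 lay at chr3:142620589-142620628 (+), chr3:142559984-142560023 (+) and chr3:142530268-142530307 (+). Irgm1's lay at chr11:48871426-48871465 (−) and Cxcl10's at chr5:92349078-92349117 (−).

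The 15 promoters held 23 ISRE cores, of which 21 began 14 to 222 bp upstream of the start site and 2 began after it, in Ddx58 and Ifih1. Every core was covered by peaks of at least 2 lists, with a median of 4 and at most 7. H3K4me3, H3K18ac and H4K8ac each covered 18 of the 23 cores, against 30.8%, 22.8% and 23.9% of the 727 cores in promoters of all protein-coding genes. H3K14ac covered 17 (21.6% of the 727), H3K27ac 15 (23.4%), H3K9ac 9 (17.5%), H3K23ac 6 (16.9%) and H2AK5ac 2 (3.58%). Overlapping cores of a gene can share a peak and are not separate units. By gene, H3K4me3, H3K18ac, H4K8ac and H3K14ac each covered a core in 12 of the 15. H3K27ac did so in 9, H3K9ac in 6, H3K23ac in 5 and H2AK5ac in 1, and no background was computed by gene. Stat2 and Ifih1 had cores under 7 lists, Ifit1 and Irgm1 under 6, and Bst2, Gbp2, Rsad2 and 1 of the 2 cores of Ifit3 under 5. At Oas3 only H4K8ac and H3K14ac covered the core. Coverage of the GAS differed between genes, with 0 lists at Ifit2, 1 at each GAS of Gbp7, 2 at Oas1a, 5 at Bst2 and 6 at Ifi35. Coverage over the GAS of all promoters was not computed. The GAS of Irf1, shown in capitals in the 40 bases from 105 to 66 bp upstream of its first start site at chr11:53769909-53769948 (+), lay under 7 lists.
Irf1: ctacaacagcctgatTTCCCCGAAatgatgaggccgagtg

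Whole promoters of 4 genes are shown as examples of high and low occupancy, again with ISRE cores in capitals. Irgm1 (chr11:48871371-48871670, −) had peaks of 7 lists on these 300 bases and Ifit1 (chr19:34640639-34640938, +) of 6. Isg15 (chr4:156200769-156201068, −) had 4 and no H3K4me3, and Oas3 (chr5:120777610-120777909, −) had 2.
Irgm1: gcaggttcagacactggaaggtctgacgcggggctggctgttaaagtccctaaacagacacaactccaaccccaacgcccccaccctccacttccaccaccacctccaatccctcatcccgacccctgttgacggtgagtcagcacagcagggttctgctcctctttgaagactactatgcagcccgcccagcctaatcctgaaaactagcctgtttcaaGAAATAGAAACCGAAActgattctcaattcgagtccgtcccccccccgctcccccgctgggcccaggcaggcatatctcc
Ifit1: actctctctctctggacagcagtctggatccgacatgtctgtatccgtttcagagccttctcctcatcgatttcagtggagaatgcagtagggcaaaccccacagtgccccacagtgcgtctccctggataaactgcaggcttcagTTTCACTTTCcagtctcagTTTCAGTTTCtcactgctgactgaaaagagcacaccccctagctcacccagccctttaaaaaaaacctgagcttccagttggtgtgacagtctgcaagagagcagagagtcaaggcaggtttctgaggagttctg
Isg15: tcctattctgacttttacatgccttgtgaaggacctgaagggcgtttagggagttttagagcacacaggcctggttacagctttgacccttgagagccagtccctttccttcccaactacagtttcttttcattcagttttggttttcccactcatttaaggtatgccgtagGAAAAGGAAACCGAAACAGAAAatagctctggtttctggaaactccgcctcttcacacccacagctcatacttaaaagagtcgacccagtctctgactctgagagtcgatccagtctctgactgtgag
Oas3: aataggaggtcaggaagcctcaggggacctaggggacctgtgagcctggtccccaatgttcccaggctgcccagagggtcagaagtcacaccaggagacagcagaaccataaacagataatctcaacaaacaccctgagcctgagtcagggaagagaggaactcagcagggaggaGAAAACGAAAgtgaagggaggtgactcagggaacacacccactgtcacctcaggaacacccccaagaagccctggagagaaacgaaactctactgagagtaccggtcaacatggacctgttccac

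In Irgm1, H3K4me3, H3K9ac and H4K8ac covered all 300 bases, H3K27ac and H3K18ac 299 each, H3K14ac 272 and H3K23ac 194. In Ifit1, H3K14ac covered 300 bases, H3K4me3 299, H3K27ac 293, H4K8ac 219, H3K9ac 204 and H3K18ac 196. Both promoters were thus nearly filled by several marks. In Isg15, H4K8ac covered 191 bases, H3K14ac 138, H3K18ac 137 and H3K27ac 116, and in Oas3, H3K14ac covered 280 and H4K8ac 109.

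Over all 26 genes, peaks on the promoter were more frequent than in the background for every list when any overlap counted, by a small margin for H3K23ac and H2AK5ac. With more of the promoter required, this did not hold for H3K23ac and H2AK5ac. H3K18ac lay on 23 promoters (background 53.3%), H4K8ac on 22 (52.9%), H3K4me3 on 21 (54.5%), H3K14ac on 20 (53.8%) and H3K27ac on 19 (52.7%). H3K9ac lay on 14 (41.7%), H3K23ac on 13 (42.2%) and H2AK5ac on 7, a share of 26.9% against 20.4%.

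With at least 150 of the 300 bases covered, an alternative chosen after the data were seen, H3K4me3 lay on 18 promoters (background 48.8%), H4K8ac on 15 (41.1%), and H3K27ac (44.0%), H3K18ac (41.7%) and H3K14ac (34.7%) on 14 each. H3K9ac then lay on 9, a share of 34.6% near its background of 32.4%, H3K23ac on 7, a share of 26.9% below 32.7%, and H2AK5ac on 0, below 5.01%. With peaks of the narrowest width left out, H3K18ac lay on 21 (50.1%), H3K4me3 on 20 (52.7%), H3K27ac on 19 (51.7%), H4K8ac on 19 (48.8%) and H3K14ac on 17 (42.0%). Here H3K9ac lay on 9, or 34.6% against 35.5%, H3K23ac on 8, or 30.8% against 34.8%, and H2AK5ac on 1, or 3.85% against 7.19%. The promoter shares of H3K4me3, H3K27ac, H3K18ac, H4K8ac and H3K14ac were thus above their backgrounds under all 3 ways of counting.

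Peaks of all 8 lists lay on the promoters of Irf1, Stat2, Ifih1, Ifit2 and Gbp3, 5 of 26 against 15.6%, where a gene with 2 start sites was counted over both. The promoter of Oasl2 had no list, 1 of 26 against 33.8%, and the median was 5 lists against 4.

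Combinations of marks on the promoter were chosen after their values were seen. Ifit3, Rsad2, Tap1, Ifi44 and Xaf1 had H3K4me3, H3K27ac, H3K18ac, H4K8ac and H3K14ac and no other list, 5 of 26 against 2.51% of protein-coding genes. With other lists allowed, 14 of 26 had these 5 marks, against 42.5%. H3K4me3 without H3K23ac and H2AK5ac was found at 9 of 26, against 11.4%: Irf7, Ifit1, Oas1a, Cmpk2 and the 5 genes just named. Isg15 and Cxcl10 had H3K27ac without H3K4me3, 2 of 26 against 2.68%.

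**Figure D3:**
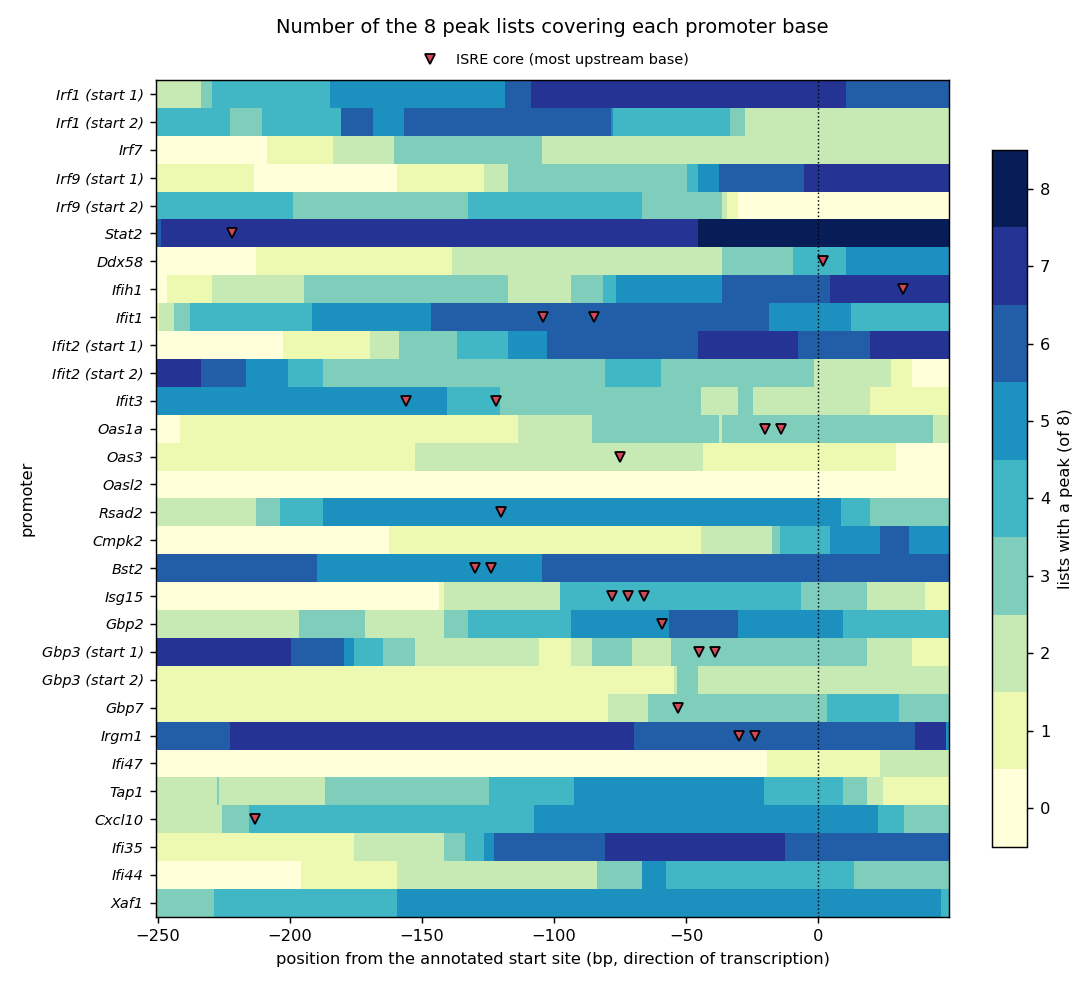
Number of the 8 lists (colour, 0 to 8) covering each base from 250 bp before to 50 bp after the start site (x axis, bp, in the direction of transcription) for the 30 promoters of 26 genes, with the most upstream base of each ISRE core as a red triangle. Stat2, Irgm1, Bst2 and Ifit1 are dark over nearly the whole promoter, Oasl2 has no covered base, and all 23 triangles lie on bases covered by at least 2 lists.

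The transcription factors had 7 or 8 lists. Irf1, an activator that interferon gamma induces, Irf9, which gives ISGF3 its DNA binding, and Stat2, its partner in that complex, had all 8 lists, and Irf7, which amplifies the interferon genes themselves, lacked H2AK5ac only. Irf1 (gene ID 16362, chr11:53770014-53778374) was covered over 1044 bp by H3K4me3, 539 by H3K9ac, 762 by H3K27ac, 579 by H3K18ac, 886 by H4K8ac, 618 by H3K23ac, 516 by H2AK5ac and 537 by H3K14ac. Its widest H3K4me3 peak, of 1044 bp (chr11:53769830-53770873), and its widest H3K27ac peak, of 338 bp (chr11:53770293-53770630), lay on its promoters, and all 8 lists met there in 1 joined region of 1228 bp. Irf9 (16391, chr14:55603985-55610030) was covered over 811 bp by H3K4me3, 475 by H3K9ac, 595 by H3K27ac, 609 by H3K18ac, 713 by H4K8ac, 967 by H3K23ac, 387 by H2AK5ac and 221 by H3K14ac. Its H3K4me3 peak of 654 bp was centred 200 bp after a start site, within 2 kb of the neighbouring gene Rnf31. With peaks within 2 kb of another gene left out, Irf9 had 3 lists in place of 8.

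Stat2 (20847, chr10:128270498-128292853) was covered over 775 bp by H3K4me3, 663 by H3K9ac, 587 by H3K27ac, 470 by H3K18ac, 978 by H4K8ac, 610 by H3K23ac, 139 by H2AK5ac and 909 by H3K14ac. The widest peak of every list lay within 139 bp of its start site, in a joined region of 849 bp that also overlaps Apof. With peaks within 2 kb of another gene left out, Stat2 had 5 lists in place of 8. Irf7 (54123, chr7:141263183-141266499) was covered over 1213 bp by H3K4me3, 398 by H3K9ac, 437 by H3K27ac, 536 by H3K18ac, 663 by H4K8ac, 801 by H3K23ac and 414 by H3K14ac. Its marks were less aligned than those of Stat2. The H3K4me3 peak of 929 bp was centred 281 bp after the start site and the H3K27ac peak of 214 bp 53 bp before it, while the widest H4K8ac peak lay 1109 bp inside the gene and the widest H3K14ac peak 3318 bp away, near Phrf1.

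The RNA sensors had 7 or 8 lists. Ifih1 encodes MDA5, which detects long double-stranded RNA, Ddx58 encodes RIG-I, which detects the ends of viral RNA, and Dhx58 encodes LGP2, their regulator. Ifih1 (71586, chr2:62595618-62646255) was covered over 927 bp by H3K4me3, 443 by H3K9ac, 733 by H3K27ac, 1246 by H3K18ac, 1051 by H4K8ac, 690 by H3K23ac, 258 by H2AK5ac and 1930 by H3K14ac. The widest peaks of 6 lists were centred within 269 bp of its start site, among them the H3K4me3 peak of 927 bp (chr2:62645523-62646449). The widest H4K8ac peak, of 324 bp, and the widest H3K14ac peak, of 448 bp, lay side by side 10783 and 10977 bp into the gene. Ddx58 had 1317 bp of H3K4me3 and 1415 bp of H4K8ac, from 11 H4K8ac peaks, the highest number of peaks of that list at any of the 32 genes. Dhx58 had 1291 bp of H3K4me3 and 569 bp of H3K27ac and no H2AK5ac.

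The antiviral effectors varied the most. Only Ifit2 and Mx2 of the 12 had all 8 lists, the median was 6 and the range 2 to 8. H3K18ac was found at 12 of them, H4K8ac and H3K14ac at 11, H3K4me3 and H3K27ac at 10 and H3K9ac at 8, while H3K23ac was found at 5 and H2AK5ac at 3. The IFIT proteins bind viral RNA and hinder its translation. Ifit2 (15958, chr19:34550550-34576534) was covered over 949 bp by H3K4me3, 1227 by H3K9ac, 1679 by H3K27ac, 1571 by H3K18ac, 1597 by H4K8ac, 1389 by H3K23ac, 129 by H2AK5ac and 3611 by H3K14ac. It had the second highest coverage summed over the lists, 12152 bp, from 18 H3K14ac peaks and 8 each of H3K27ac, H3K18ac and H4K8ac. The widest peaks of H3K4me3 (624 bp, chr19:34550492-34551115), H3K27ac (376 bp) and H4K8ac (336 bp) lay within 109 bp of a start site, whereas the widest H3K23ac peak was centred 1170 bp inside the gene.

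Its neighbours on chromosome 19 differed from it. Ifit1 (15957, chr19:34640889-34650009) was covered over 957 bp by H3K4me3, 408 by H3K9ac, 349 by H3K27ac, 199 by H3K18ac, 219 by H4K8ac and 1178 by H3K14ac, with neither H3K23ac nor H2AK5ac. Its H3K4me3 peak of 486 bp was centred 7 bp before the start site, and the H3K27ac, H3K18ac and H4K8ac peaks on the promoter covered the ISRE shown above. Every one of its peaks also lay within 2 kb of Ifit1bl1 or Ifit1bl2. Ifit3 had 614 bp of H3K4me3, 520 bp of H3K27ac and 1271 bp of H3K14ac and lacked H3K9ac, H3K23ac and H2AK5ac.

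Mx1 and Mx2 belong to a family of dynamin-like antiviral GTPases, and both are annotated here as transcribed pseudogenes. Mx2 (17858, chr16:97536081-97560901) was covered over 1553 bp by H3K4me3, 661 by H3K9ac, 1007 by H3K27ac, 851 by H3K18ac, 1167 by H4K8ac, 412 by H3K23ac, 258 by H2AK5ac and 2463 by H3K14ac. All 8 lists met in a region of 1045 bp (chr16:97534779-97535823) that ended 258 bp outside the lower-coordinate end of the gene, and the widest H3K27ac peak there had 624 bp. Mx1 (17857, chr16:97447035-97462906) had 418 bp of H3K27ac, 490 of H3K18ac, 204 of H4K8ac and 2709 of H3K14ac, and no peak of H3K4me3, H3K9ac, H3K23ac or H2AK5ac. Its 4 lists met in a region of 464 bp (chr16:97447474-97447937), 439 bp inside the lower-coordinate end. The paralogs thus differed at H3K4me3, with 6 peaks at Mx2 and 0 at Mx1, while each had 14 H3K14ac peaks.

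The oligoadenylate synthetases make the messenger that activates RNase L. Oas2, Oas1a and Oas3 had the lowest coverage of the 32 genes when summed over the lists, 656, 1437 and 1872 bp. Oas2 (246728, chr5:120730333-120749886) had 104 bp of H3K18ac, from 1 peak (chr5:120729326-120729429), and 552 bp of H3K14ac, from 4 peaks, the first at chr5:120731260-120731397. All 5 peaks had the commonest width of their list, and the other 6 lists were absent. Oas3 (246727, chr5:120753098-120777684) had 157 bp of H3K4me3, 104 of H3K18ac, 109 of H4K8ac, 412 of H3K23ac and 1090 of H3K14ac. Its H3K4me3 peak lay 2359 bp inside the gene (chr5:120775222-120775378), and only the H4K8ac peak (chr5:120777703-120777811) and an H3K14ac peak reached its promoter. Oas1a had 157 bp of H3K4me3, 204 of H3K9ac, 108 of H3K27ac, 104 of H3K18ac, 102 of H4K8ac and 762 of H3K14ac, mostly from peaks of the commonest width. Oasl2, their relative, had 788 bp of H3K4me3 and 1127 bp of H3K18ac, but its region of 5 lists began 378 bp from the start site and its promoter had no peak.

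The remaining effectors had 6 or 7 lists. Rsad2, which encodes viperin, a radical enzyme that makes a chain-terminating nucleotide, had 682 bp of H3K4me3 and 481 bp of H3K27ac. Its neighbour Cmpk2, a mitochondrial nucleotide kinase, had 1375 and 554 bp. Both lacked H3K23ac and H2AK5ac. Bst2, which encodes tetherin, a protein that holds virus particles to the cell surface, had 1684 bp of H3K4me3, 1057 of H3K9ac, 697 of H3K27ac and 1052 of H3K23ac.

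Of the ISG15 group, Isg15 encodes a ubiquitin-like protein that is attached to other proteins, Usp18 removes it and damps the interferon receptor, and Parp14 is an ADP-ribosyltransferase. Parp14 (547253, chr16:35831892-35871518) had the highest coverage summed over the lists, 14108 bp, with 2756 bp of H3K4me3, 2179 of H3K9ac, 1518 of H3K27ac, 1915 of H3K18ac, 1975 of H4K8ac, 1779 of H3K23ac, 755 of H2AK5ac and 1231 of H3K14ac. Its widest H3K4me3 peak, of 1039 bp (chr16:35870388-35871426), lay at the higher-coordinate end of the gene. The widest H3K27ac peak (564 bp, chr16:35843910-35844473), H3K18ac peak (576 bp) and H4K8ac peak (582 bp) lay together inside the gene, in a region of 826 bp shared by 7 lists. Usp18 had 1631 bp of H3K4me3 and 945 bp of H3K27ac and lacked H2AK5ac.

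Isg15 (100038882, chr4:156199424-156200818) had 762 bp of H3K4me3, 603 of H3K9ac, 743 of H3K27ac, 619 of H3K18ac, 683 of H4K8ac, 206 of H3K23ac, 129 of H2AK5ac and 276 of H3K14ac within its window. The H3K4me3 and H2AK5ac peaks and the widest peaks of H3K9ac, H3K27ac, H3K18ac, H4K8ac and H3K23ac all lay in a region of 1185 bp (chr4:156197001-156198185) that overlaps Agrn, 2633 bp from the start site of Isg15. On its own promoter, shown above with 3 overlapping ISRE cores, H3K27ac, H3K18ac, H4K8ac and H3K14ac were present and H3K4me3 was not. With peaks within 2 kb of another gene left out, Isg15 had 4 lists in place of 8. By the same rule Dhx58 and Gbp2 had 4 in place of 7. Tap1 had 1 in place of 6, Cxcl10 0 in place of 5 and Ifit1 0 in place of 6. Apart from these, Irf9 and Stat2, every gene kept its number of lists.

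All 5 GTPases, which act on the vacuoles of intracellular microbes, had H3K4me3, H3K27ac, H3K18ac, H4K8ac, H3K23ac and H3K14ac. Gbp2 (14469, chr3:142620663-142638008) was covered over 856 bp by H3K4me3, 408 by H3K9ac, 475 by H3K27ac, 506 by H3K18ac, 548 by H4K8ac, 206 by H3K23ac and 1414 by H3K14ac. The H3K4me3 peak of 473 bp (chr3:142620397-142620869) was centred 30 bp before the start site, whereas the widest H3K27ac peak was centred 848 bp and the widest H3K18ac peak 826 bp upstream of it. Gbp3 had 1031 bp of H3K4me3 and all 8 lists, and Gbp7 had 1096 bp of H3K4me3 and 1188 bp of H3K18ac. Irgm1 had 2038 bp of H3K4me3, 1310 of H3K9ac and 1300 of H3K23ac, met by 7 lists in a region of 1570 bp, the longest such region of the 32 genes. Ifi47 had 551 bp of H3K4me3 and 1305 bp of H3K27ac. Its only region with 8 lists lay 13634 bp from the start site (chr11:49090221-49090560), and its promoter had H3K18ac and H3K23ac alone.

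Tap1 encodes a subunit of the transporter that carries peptides for antigen presentation, and Cxcl10 a chemokine for T cells. Tap1 (21354, chr17:34187556-34197225) had 1569 bp of H3K4me3, 352 of H3K27ac, 266 of H3K18ac, 516 of H4K8ac, 206 of H3K23ac and 932 of H3K14ac. Its widest H3K4me3 peak, of 916 bp (chr17:34197612-34198527), lay next to Psmb8 beyond the far end of the gene, 10513 bp from the start site, while the widest H3K27ac peak (211 bp, chr17:34187370-34187580) lay on the promoter, near Psmb9. Cxcl10 (15945, chr5:92346638-92348889) had 408 bp of H3K9ac, 289 of H3K27ac, 579 of H3K18ac, 292 of H4K8ac and 575 of H3K14ac, and no H3K4me3. The H3K27ac peak (chr5:92348816-92349104) and the H3K14ac peak of 437 bp lay on the promoter, which the annotation also places inside Art3. Among the other induced proteins, Ifi35 had all 8 lists with 1023 bp of H3K4me3 and 1405 bp of H4K8ac. Ifi44 had 604 bp of H3K4me3 and 466 bp of H3K27ac, and Xaf1, which encodes an antagonist of the apoptosis inhibitor XIAP, had 962 and 426 bp. Neither had H3K9ac or H2AK5ac.

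The peaks were placed around the start sites of the 26 genes. H3K4me3 and H3K9ac lay closest, with median distances of 494 and 439 bp and 68.6% and 65.8% of their peaks within 1 kb. H3K27ac and H3K18ac followed with 52.2% and 52.4% within 1 kb and medians of 848 and 790.5 bp. H2AK5ac had 51.9% of 27 peaks within 1 kb, H4K8ac 42.6%, H3K23ac 40.4% and H3K14ac 29.6%, with a median of 3270.5 bp for H3K14ac. The median H3K4me3 peak at these genes had 355 bp against 157 bp over the whole list, the median H3K18ac peak 160 against 112 bp and the median H3K27ac peak 210 against 192 bp. The median widths of H3K9ac, H4K8ac, H3K23ac, H2AK5ac and H3K14ac were equal to those of their whole lists. The whole lists include peaks outside gene windows, and widths at other genes alone were not compared.

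**Figure D4:**
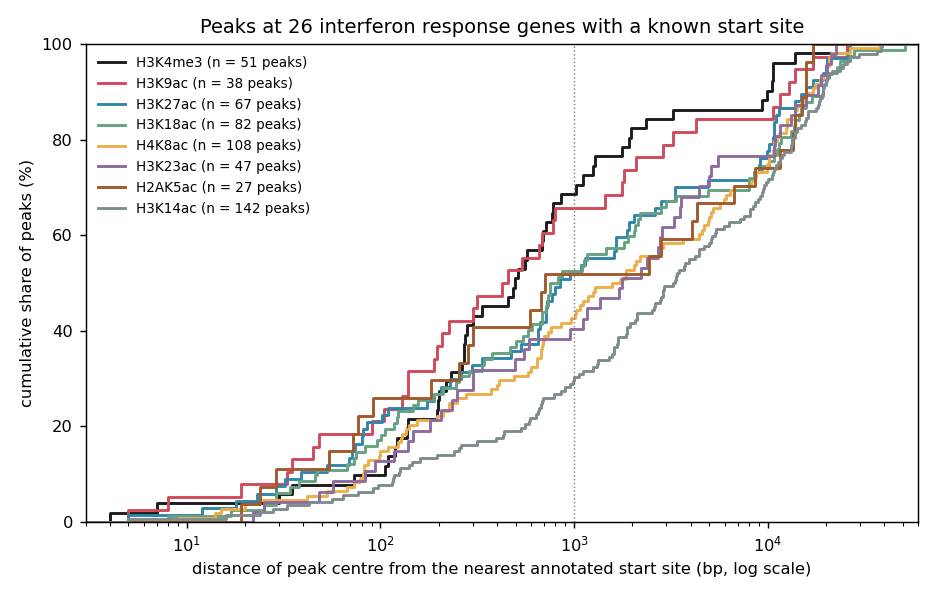
Cumulative share of peaks (%) against the distance of the peak centre from the nearest annotated start site (bp, log scale), for each list at the 26 genes with a start site, with a dotted line at 1 kb. The H3K4me3 curve crosses 1 kb at 68.6% and the H3K14ac curve at 29.6%.

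When peaks that shared bases were joined, the windows of the 32 genes held 307 regions, of which 214 had 1 list only, 102 of these being H3K14ac, and 11 had all 8. In 23 of the 26 genes a region with the gene's highest number of lists covered a start site, and the exceptions were Oasl2, Isg15 and Ifi47. The share over all protein-coding genes was not computed, so this count does not set these genes apart from others. Bst2, Gbp2, Oas3 and Tap1 each had a tied region away from the start site as well. At Tap1 the region of 5 lists at the start site (chr17:34187228-34187638) tied with a longer one of 5 lists next to Psmb8. Of 68 H3K4me3 peaks, 70.6% overlapped an H4K8ac peak, against 54.4% of all 54575 H3K4me3 peaks. The corresponding shares were 69.1% against 53.4% for H3K14ac, 67.6% against 54.3% for H3K18ac, 64.7% against 53.6% for H3K27ac, 44.1% against 38.6% for H3K23ac and 22.1% against 29.0% for H2AK5ac. Of 85 H3K27ac peaks, 72.9% overlapped H4K8ac and 70.6% H3K18ac, near the 67.0% and 72.4% of all H3K27ac peaks. Of 192 H3K14ac peaks, 30.2% overlapped H3K18ac and 34.9% H4K8ac, against 13.99% and 12.9% of all H3K14ac peaks. The shares over all peaks include peaks outside gene windows, and peaks at other genes alone were not compared. Across the 32 genes, covered bases of H3K27ac and H4K8ac had a Spearman coefficient of 0.80 and those of H3K18ac and H4K8ac of 0.76, while H3K9ac and H3K14ac had -0.03. These coefficients are descriptions over genes that share libraries and differ in length.

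Reads could be placed at 21 of the 32 genes. A read was used only where its identifier had a single region with bases covered by no other identifier, which left 123 regions of 16230 such bases, mainly of the H3K14ac list, and left out most shared promoter regions. Irf1, Irf9, Stat2, Dhx58, Oasl2, Rsad2, Cmpk2, Irgm1, Ifi47, Ifi35 and Xaf1 had none. Over the 21 genes these regions held 2402 H3K14ac reads, 357 H3K27ac, 138 H3K4me3, 82 H3K18ac, 55 H4K8ac and 2 H3K23ac reads, and 0 of H3K9ac, H2AK5ac and IgG. The floor of 3 reads in IgG corresponds to 8.20 CPM. Intervals (exact Poisson, 95%) cover counting error only. A gene's CPM is given as a multiple of this floor, which is not a bound on the fold over IgG.

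The H3K14ac CPM was 2 or more times that floor at 4 of 21 genes, against 23.4% of 14985 genes with such regions. Mx1 had 41.4 CPM (37.5 to 45.6), 5.05 times the floor. Ifit2 had 30.3 CPM (26.96 to 33.87), 3.69 times the floor. Mx2 had 20.7 CPM (17.99 to 23.72), 2.53 times the floor, and Oas3 19.4 CPM (16.8 to 22.3), 2.37 times the floor. CPM was summed over bases covered by no other identifier, 2395 at Mx1, 1864 at Ifit2, 1776 at Mx2 and 981 at Oas3. Such bases numbered 961 at Gbp7, 552 at Oas2 and 21 at Isg15, which did not pass. The floor was the same for every gene, so a gene with more such bases could pass at a like read density. H3K27ac passed at Ifit2, with 22.1 CPM (16.7 to 28.7) and 2.70 times the floor, and at Mx1, with 21.7 CPM (16.4 to 28.3) and 2.65 times the floor, 2 of 21 against 16.6%. H3K4me3 passed at Usp18, with 26.4 CPM (18.8 to 36.1) and 3.22 times the floor, and at Ifih1, with 19.6 CPM (13.1 to 28.2) and 2.39 times the floor, 2 of 21 against 7.97%. No gene passed for H3K9ac (background 1.7%), H3K18ac (8.49%), H4K8ac (6.62%), H3K23ac (1.13%) or H2AK5ac (1.19%). The usable regions, mainly of the H3K14ac list, held 0 H3K9ac, 0 H2AK5ac and 2 H3K23ac reads. H3K9ac and H2AK5ac therefore could not have passed at any depth of IgG. The shares lay near or below the background. The upper 95% limit of 0 IgG reads is 3.69 reads, or 10.1 CPM, above the floor. Relative to that limit the H3K14ac CPM of Oas3 stood at 1.93 times and the H3K4me3 CPM of Ifih1 at 1.95 times, so that 3 genes passed for H3K14ac and 1 for H3K4me3.

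**Figure D5:**
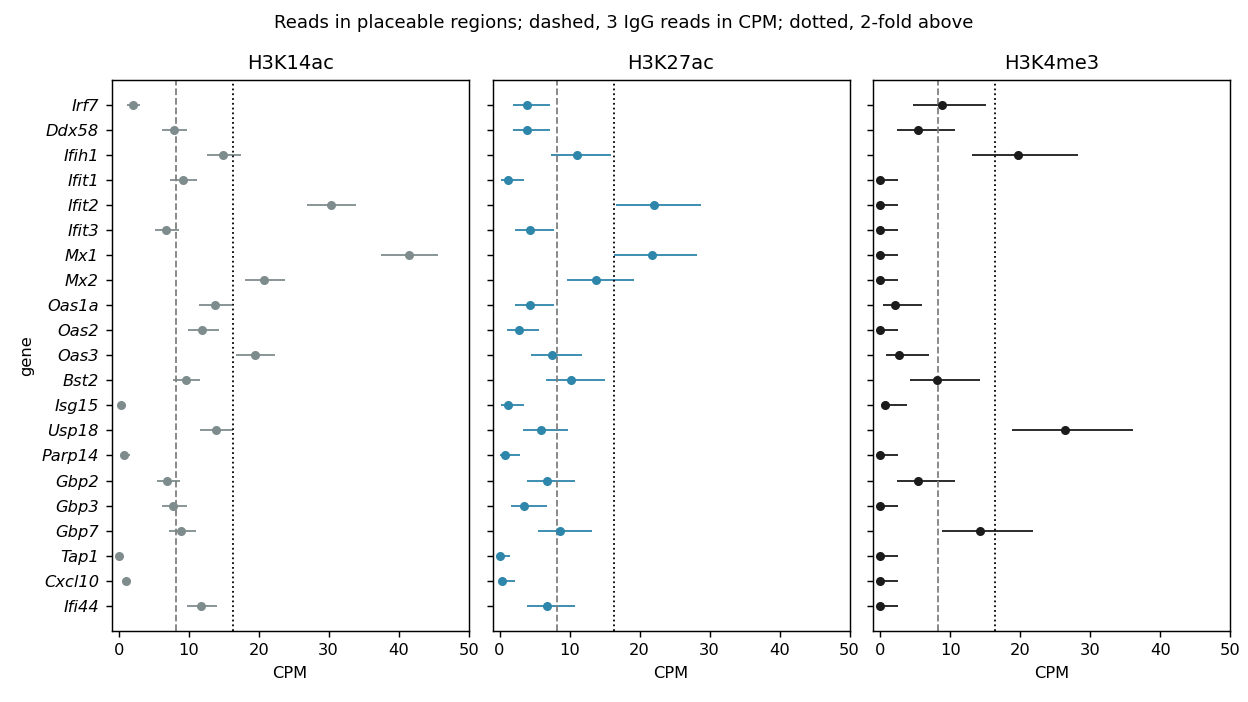
Reads in placeable regions, in CPM (x axis, linear), of H3K14ac, H3K27ac and H3K4me3 at the 21 genes with such regions, with exact 95% Poisson intervals as bars. The dashed line is the floor of 3 IgG reads (8.20 CPM) and the dotted line 2 times that floor, which 4, 2 and 2 genes pass.

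Of all 729 identifiers with a region at the 32 genes, 726 had 0 IgG reads. The other 3 lay at Cxcl10, Ddx58 and Ifi47, and their reads are sums over several regions that cannot be placed.

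The other genes of the pathway were examined in the same windows. Of all protein-coding genes, 44.6% had all 8 lists. Spans differ between the classes, from 573 bp at Ifna2 to 113309 bp at Jak1, and coverage was not scaled for them. The ligands had a median of 1 list. None of 8 had all 8 lists, Ifnb1 had 3 and Ifne 5, and Ifna4 and Ifnl3 had none. All 8 lists were found at 5 of 6 receptors. Ifnar2 and Ifngr2, subunits of the type I and type II receptors, had 21272 and 13975 bp of coverage summed over the lists, and Ifnar1 and Ifngr1 also had all 8. Il10rb, which serves the lambda interferon receptor, had all 8, and its partner Ifnlr1 had 6 and 1499 bp. All 9 kinases and transcription factors had 8 lists, from Irf2 with 46882 bp and Jak1 with 37950 bp to Tyk2 with 8421 bp and Irf5 with 6265 bp.

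Of 10 sensing adaptors and kinases, 5 had all 8 lists, near the share of 44.6% over all protein-coding genes. Tbk1, the kinase that activates IRF3, had 11110 bp and Ikbke 6406 bp. Tlr7 had 5 lists and Tlr9, a sensor of microbial DNA, had 1. Among 4 inhibitors, Pias1, Socs1 and Ptpn2 had all 8 lists and Socs3 had 7; summed coverage ran from 13265 bp at Pias1 and 10238 bp at Socs1 to 9440 bp at Ptpn2 and 7994 bp at Socs3. Of 48 other induced genes, 21 had all 8 lists (44.6% of protein-coding genes) and 1 had none, with a median of 7 as in the 32 genes. Nlrc5, the activator of class I antigen presentation genes, had 16249 bp and Tor3a 13986 bp. Cxcl11 had 2 lists with 259 bp, and Cxcl9 had no peak. These chemokines share receptor and genomic neighbourhood with Cxcl10, which had 5 lists.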

How the data were processed

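The deposited table holds counts of reads per region identifier in 9 ACT-seq libraries, with no normalization. The authors made these counts with featureCounts 2.0.6, per the file headers, in paired-end mode, unstranded, and discarding reads that touch several identifiers. The submitters' processing notes name Trim Galore, STAR, MACS2 and DESeq2 and the builds mm10 and GRCm38.p6. The sources used here do not give aligner or peak-caller settings, duplicate handling, or whether IgG served as control for the peaks.

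The table joins 8 numbered peak lists under 578465 shared identifiers. They were separated so that each runs in genome order with no peak under its commonest width, with 0 breaks. On simulated data, 99.99% of 45568 regions returned to their list. These simulated lists were smaller, with places drawn at random and independently on a single sequence, and with the commonest widths of the separated lists. The deposited lists overlap each other and run over many chromosomes, so the share placed rightly in them is not known. Order alone placed 0.834% of the 911433 regions in shared identifiers differently. Starts were read as counted from 0 and are printed from 1. Genes and promoters came from RefSeq (GRCm38.p6), without exons, introns or UTRs. The background was every protein-coding gene of the autosomes and sex chromosomes. Reads were scaled to CPM by table totals, and a gene was called at 2-fold or more over the IgG floor of 3 reads. Counts, medians and intervals were computed in Python 3.11.15 with pandas 2.3.3, numpy 2.4.6 and SciPy 1.17.1. With 1 library per mark no test was run. The genes and gene lists were chosen with earlier results of these data known. Full values were given for the 3 genes with the most and the 3 with the fewest lists (ties by covered bases) and for main factors of each role, and in other pathway classes for the 2 with the most and the 2 with the fewest. The alternatives covered the window, peak width, separation, background, fold, IgG floor and promoter coverage.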

Additional observations from a re-analysis of the deposited data

How the results depend on the processing

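The count of genes with a peak lay within 1.5 times its value for all 8 lists with no flank, with 5 kb flanks, with gene ends only, with at least 50% of the peak inside the window, with separation by order alone and without peaks near other genes. In the last case H3K4me3 was found at 23 of the 32 genes, H3K9ac at 19, H3K27ac at 26 and H3K18ac at 27. H4K8ac was then found at 27, H3K23ac at 20, H2AK5ac at 12 and H3K14ac at 26. The background was not counted without such peaks, so it is not known whether the shares above it would remain so. The count of 12 genes with all 8 lists likewise ran from 9 to 14. With peaks wider than the commonest width only, it was 3 of 32 (18.6% of protein-coding genes), and H3K9ac was found at 15, H3K23ac at 13 and H2AK5ac at 5. The ratio of median covered bases, these genes over all protein-coding genes, differed with the scale, and the cause was not tested. Per kb of window it was 3.19 for H3K4me3 (1.22 by bases), 1.81 for H3K27ac, 1.93 for H3K18ac and 1.82 for H4K8ac. Against genes of like span it was 1.80 per kb for H3K4me3, 1.32 for H3K27ac, 1.46 for H3K18ac and 1.31 for H4K8ac. At gene ends it was 3.61 for H3K9ac and 1.73 for H3K18ac. The other ratios that could be formed moved by less than 1.5 times. Those of H3K9ac, H3K23ac and H2AK5ac for wider peaks, and of H2AK5ac at gene ends, could not be formed because the background median was 0. At 4-fold over IgG, 0 genes passed for H3K4me3, 0 for H3K27ac and 1 for H3K14ac. Alternatives on the promoter and with the upper 95% limit of 0 IgG reads in place of the floor were chosen after the data were seen. With that limit, 1 gene passed for H3K4me3. With at least 150 of the 300 bases covered, H3K9ac lay on 9 promoters (32.4% of protein-coding genes), H3K18ac on 14 (41.7%), H3K23ac on 7 (32.7%) and H2AK5ac on 0 (5.01%). With wider peaks only, H3K9ac lay on 9 (35.5%), H3K23ac on 8 (34.8%) and H2AK5ac on 1 (7.19%). No paired analysis was possible because each mark had 1 library and the labels give no replicate numbers. The IgG library was the shallowest, which sets the floor of the read comparison.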
